A study of Caenorhabditis elegans with 58 samples.

Results

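The ttr genes of Caenorhabditis elegans encode transthyretin-like proteins, a family of small proteins with a signal peptide that is found in nematodes. Members were taken as the entries whose name is ttr- followed by a number, which gave 58 of the 45410 entries counted in every library. The rule uses the name alone, but the family and the marker lists below were chosen with earlier results of these data known. The 58 RNA-seq libraries were made from whole animals at the L4 larval stage and fall into 15 groups. In the parental experiments (9 groups, 36 libraries), wild type (WT) and set-2(zr1208) mutant animals were compared, the mutant carrying a point mutation in the SET domain of an H3K4 methyltransferase. F1-1DOA animals are the self-progeny of mothers on day 1 of adulthood kept at 20°C, and F1-4DOA animals are those of mothers on day 4. F1-25C animals were kept for 1 generation at 25°C, and the F1-back group, which exists for WT only, are progeny at 20°C after the mothers had been returned from 25°C (the length of the exposure is described in different ways by the study). The groups 1DOA x 1DOA and 1DOA x 4DOA are cross-progeny of young WT males with young or with old WT hermaphrodites. In the outcross experiment (6 groups, 22 libraries), WT males were crossed with set-2(zr1208) hermaphrodites, and WT descendants (WT-des) and mutant descendants (MUT-des) were sequenced at F3 and F5 beside lines from a cross of WT with WT (WT-ctrl), all at 20°C. The study gives these descendants as coming from the same cross, so that the spread between lines does not cover differences between crosses. Several strains of the study carry the GFP transgene oyIs14 on chromosome V, with or without set-2(zr1208), and others do not. Which of the selfed libraries carried it is not given in the sources used here. In the study's methods for the age crosses, the males carried oyIs14 and cross-progeny were picked by it. Its part in differences between crossed and selfed groups was not tested.

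Transthyretin-like proteins are distinct from vertebrate transthyretin, the carrier of thyroid hormone, with which they share a related fold. Most have no described function. TTR-52 is the best known: it is a secreted bridging protein that binds phosphatidylserine exposed on dying cells and the engulfment receptor CED-1, and it also acts on injured axons. TTR-33 protects dopamine neurons against oxidative damage. The genes are spread over the genome, in part as neighbouring copies.

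The values are raw counts per entry. Totals were 2819460 to 31543107 counts per library in the parental experiments and 14071245 to 25733464 in the outcross. WT-ctrl F5 replicate 2 held only 1271186 counts, so outcross values are given over the other 21 libraries. The ttr genes took 0.278% to 0.523% of all counts in the parental libraries and 0.311% to 0.471% in the outcross. Counts were scaled by TMM to counts per 1000000 counts of a library (CPM) within each experiment, and levels of the 2 experiments are not compared. A gene was called where the edgeR adjusted p, taken over all entries tested, was under 0.05 and the log2 fold change was above 1 or below −1. Replicate numbers are those of the labels, and no 2 libraries of a group held the same counts.

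Of the 58 members, 48 passed the filter on low counts in both experiments. The other 10 could not be compared by the entry that carries their name. The entries of ttr-12, ttr-24, ttr-25, ttr-44, ttr-52 and ttr-59 were listed at 0 counts in all 58 libraries, and ttr-39, ttr-4, ttr-19 and ttr-11 had at most 1, 3, 4 and 11 counts in any library. A count of 0 here is no sign that a gene is silent. The count tables also hold entries named by a transcript, and 7 of these 10 genes had such an entry, with medians of 601.5 counts per library for ttr-24, 184.5 for ttr-25, 146 for ttr-59 and 109.5 for ttr-39. Those for ttr-12, ttr-11 and ttr-44 had medians of 58.5, 6 and 2.5 counts. By these entries ttr-12, ttr-24, ttr-25 and ttr-39 were tested in all 16 comparisons and ttr-11 in 4, and none of the 5 was called. The lowest edgeR adjusted p was 0.0929 for ttr-12, 0.155 for ttr-24, 0.171 for ttr-25, 0.112 for ttr-39 and 0.928 for ttr-11. The entries of ttr-59 and ttr-44 were called in 4 of 16 and in 5 of 12 comparisons. Counts of ttr genes called in the comparisons below are of the 48 and leave the transcript-named entries out. For ttr-52, ttr-4 and ttr-19 no second entry was matched, so the level of ttr-52 could not be read.

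By the WBcel235 annotation, in which 57 of the 58 members were found, 22 ttr genes lie on chromosome V, 12 on X, 10 on IV, 9 on III, 3 on I and 1 on II. Their coding lengths are 267 to 1218 nucleotides, with a median of 429. Of these, 28 have another ttr gene as a neighbour, among them ttr-27, ttr-28 and ttr-29 in a row on chromosome V, and ttr-24, ttr-25 and ttr-26 in another row on the same chromosome. Another gene overlaps 17 of them, in most cases on the opposite strand. Overlap was read from whole gene spans, introns included, and overlap of exons was not checked. Strand is not kept by the kit used, so reads from any exon stretch that both genes share cannot be told apart. Pairs on opposite strands include ttr-7 (with best-17), ttr-8 (with lgc-12), ttr-42 (with H01M10.1), ttr-50 (with rbm-17), ttr-16 (with lin-3), ttr-14 (with vap-2) and ttr-33 (with mig-6 and txt-5). Near-identical neighbours could also share reads.

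A few members held most of the family's reads. The highest were ttr-14, with a mean of 814.1 CPM, ttr-16 with 762.6, ttr-15 with 312.1, ttr-46 with 267.4 and ttr-48 with 184.1, and together they took 61.4% of the ttr counts. Per kilobase of exon, ttr-16 was first with 1484 CPM per kb, followed by ttr-14 with 575.3 and ttr-15 with 512.4. The lowest tested member was ttr-22, with a mean of 0.652 CPM. In the outcross and parental groups alike, the means of ttr-16 stayed between 593 and 994.6 CPM and those of ttr-14 between 621.2 and 1101. None of these 5 genes was called in any of the 16 comparisons. The plot of levels shows that the members called are among the weakly expressed ones. Some abundant members passed the adjusted p in a comparison below but not the fold threshold, such as ttr-15.

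**Figure D1:**
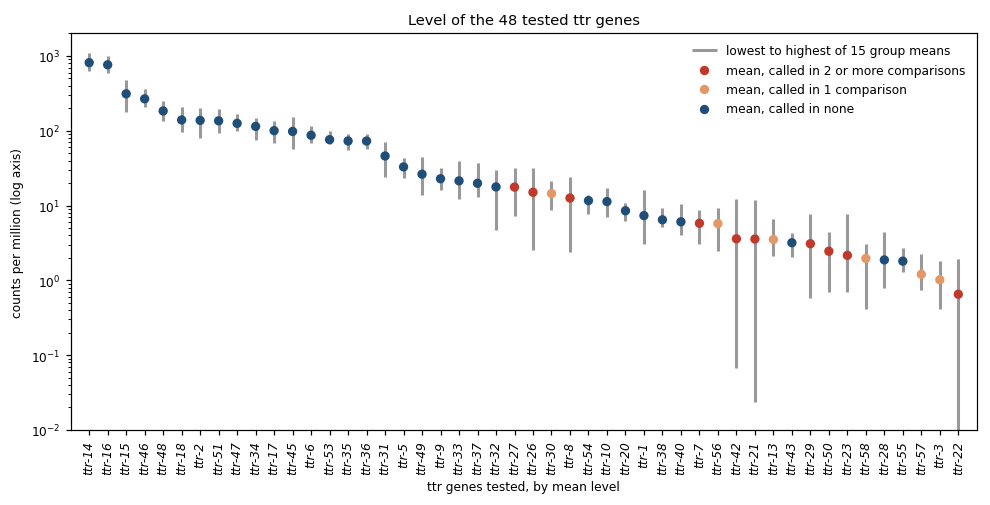
Mean level of the 48 tested ttr genes in CPM (log axis), ordered by mean, with a grey line from the lowest to the highest of the 15 group means; group means of 0 run off the axis. The 10 genes called in 2 or more comparisons (dark red) have means of 0.652 to 17.6 CPM, far below the 814.1 of ttr-14.

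Over the 16 comparisons, 16 ttr genes were called in 1 or more comparisons and 10 in 2 or more, and 32 of the tested genes were called in none. Of the 15128 entries tested in both experiments, 18.9% were called in 1 or more and 7.98% in 2 or more, against 33.3% and 20.8% of the ttr genes. Those 10 are ttr-29, ttr-21, ttr-26, ttr-27, ttr-42, ttr-50, ttr-7, ttr-8, ttr-22 and ttr-23, which together held 1.68% of the ttr counts. On chromosome V lie 6 of them. The most frequent were ttr-29, called in 8 comparisons, ttr-21 in 7 and ttr-26 in 6. Many of the 16 comparisons share libraries, WT F1-1DOA above all, and some are differences between others. Calls of a gene in several of them are thus not independent support.

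Maternal age was tested first in WT. In F1-4DOA against F1-1DOA, 6 ttr genes were called and all 6 rose, against 2.44% of all entries called, 2.38% higher. The largest change was in ttr-21, a gene with no described role. It stood at 0.196, 0.613, 0.661 and 0.476 CPM in the 4 F1-1DOA libraries and at 9.21, 10.3, 13.5 and 14.1 CPM in the 4 F1-4DOA libraries. The groups lay far apart. The log2 fold change was 4.59 with a standard error (SE) of 0.93 (edgeR adjusted p = 0.00483). The level of ttr-29 was 1.37, 0.736, 1.32 and 2.03 CPM in F1-1DOA and 9.61, 5.62, 7.14 and 8.94 CPM in F1-4DOA. Every F1-4DOA library was thus higher, with a log2 fold change of 2.44 (SE 0.46, edgeR adjusted p = 0.00231). Its near neighbour ttr-27 rose from 7.23 to 20.1 CPM in F1-1DOA to 29.2 to 34.3 CPM in F1-4DOA, a log2 fold change of 1.24 (SE 0.33, edgeR adjusted p = 0.0257), and ttr-28, which lies between them, was not called. The other genes that rose were ttr-42, ttr-26 and ttr-7, by log2 fold changes of 3.26, 1.5 and 1.27 (SEs 0.88, 0.40 and 0.35, edgeR adjusted p = 0.0325, 0.0315 and 0.0331). In whole animals, more cells of a type and more RNA per cell cannot be told apart, here and in the comparisons that follow.

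Beyond the called genes, the family leaned upwards in F1-4DOA. Of the 48 tested members, 34 had a positive log2 fold change, as did 48% of all entries, with a median of 0.31 against −0.01 over all entries tested. In 14 of 48 every F1-4DOA library lay above every F1-1DOA library, as in 7.23% of all entries, and in 1 every one lay below, as in 1.57%. The abundant gene ttr-15 was among the 14, with 176 to 309 CPM in F1-1DOA and 402 to 569 CPM in F1-4DOA, but its log2 fold change of 0.92 did not reach the fold threshold (SE 0.25, edgeR adjusted p = 0.0297). Genes of oocytes and yolk moved in the same libraries. Of 14 tested genes of that list 7 rose, among them the vitellogenin genes vit-1, vit-4 and vit-6, which encode yolk proteins. Their log2 fold changes were 2.98 for vit-1, 2.86 for vit-4 and 2.43 for vit-6 (SEs 0.47, 0.59 and 0.51, edgeR adjusted p = 0.00099, 0.00584 and 0.00646). The summed level of that list was 2350 to 7350 CPM in F1-1DOA and 17700 to 28400 CPM in F1-4DOA, with no gene of it at 0. The part of these genes in the change of the ttr genes was not tested. When 1 library was left out, ttr-21 and ttr-29 stayed called each time, and they were the only 2 called without F1-1DOA replicate 1, 2 or 4 or F1-4DOA replicate 3. The call of ttr-26 held only when F1-4DOA replicate 4 was the library left out. The call of ttr-42 was also lost without F1-1DOA replicate 3 or F1-4DOA replicate 4, and that of ttr-7 without F1-4DOA replicate 2.

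Growth at 25°C was tested against the same 4 F1-1DOA libraries, so these values share their controls with those for maternal age. In WT F1-25C, 9 ttr genes were called and all 9 rose, against 4.99% of all entries, 4.06% higher. Again ttr-21 was far higher, at 11.9, 17.2, 7.17 and 8.05 CPM, a log2 fold change of 4.48 over the F1-1DOA values given above (SE 0.93, edgeR adjusted p = 0.00233). The level of ttr-50 was 1.07, 0.613, 0.944 and 1.47 CPM in F1-1DOA and 4.78, 4.75, 4.14 and 4.22 CPM in F1-25C. These 4 F1-25C libraries lay close together and well above the controls, with a log2 fold change of 2.04 (SE 0.40, edgeR adjusted p = 0.00115). The level of ttr-23 was 0.880, 1.47, 0.944 and 0.822 CPM in F1-1DOA and 5.55, 7.12, 5.02 and 4.55 CPM in F1-25C, again without overlap, with a log2 fold change of 2.46 (SE 0.49, edgeR adjusted p = 0.00141). In F1-4DOA the same genes reached only 1.16 to 1.96 CPM for ttr-50 and 1.34 to 1.94 CPM for ttr-23 and were not called. The other genes that rose were ttr-42, ttr-22, ttr-8, ttr-29, ttr-26 and ttr-7, with log2 fold changes of 3.35, 2.68, 1.78, 1.77, 1.26 and 1.21 (SEs 0.88, 0.71, 0.57, 0.46, 0.40 and 0.35, edgeR adjusted p = 0.0153, 0.015, 0.0485, 0.0137, 0.0481 and 0.0252).

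In 20 of the 48 members every F1-25C library lay above every F1-1DOA library, as in 9.9% of all entries, and in 1 every one lay below, as in 6.44%. Positive changes numbered 33 of 48, against 49.3% of all entries, and the median log2 fold change of the family was 0.38 against 0. Oocyte genes rose here too, with 7 of 14 called, among them egg-2 and egg-1, which encode oocyte surface proteins, oma-2, which acts in oocyte maturation, and vit-1. The summed level of that list was 6100 to 15300 CPM against 2350 to 7350 CPM. Of 17 moulting genes mlt-10 fell, with a log2 fold change of −1.39 (SE 0.41, edgeR adjusted p = 0.0332), and the summed level of that list was 2550 to 5970 CPM against 4220 to 9470 CPM, with 3 of its genes at 0. Their part in the change of the ttr genes was not tested. Without F1-1DOA replicate 2, 3 ttr genes were called, and 4 and 5 were without F1-1DOA replicate 1 and F1-25C replicate 1. The calls of ttr-21, ttr-23 and ttr-50 held whichever library was left out, and that of ttr-29 was lost only without F1-1DOA replicate 2. The calls of ttr-42 and ttr-22 were lost without F1-1DOA replicate 1 or 2, and that of ttr-22 also without F1-25C replicate 1. The call of ttr-7 was lost in 5 of the 8 cases, and those of ttr-26 and ttr-8 in 7, with ttr-26 kept only without F1-25C replicate 3 and ttr-8 only without F1-1DOA replicate 3.

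The F1-back libraries tested whether the levels differed after the return to 20°C. Against F1-1DOA, edgeR and DESeq2 called 0 of the 48 ttr genes, where edgeR called 0.549% of all entries. The transcript-named entry of ttr-44, which is not among the 48, was called higher from low values. Its mean was 0.0984 CPM in F1-1DOA and 2.53 CPM in F1-back, a log2 fold change of 4.39 (SE 0.42, edgeR adjusted p = 8.68e-09). An unadjusted p under 0.05 was seen for 2 ttr genes and for 11.6% of all entries. Positive changes numbered 13 of 48, against 47.7% of all entries, with a median of −0.21 against −0.02. In 0 of 48 every F1-back library lay above every F1-1DOA library, as in 8.42% of all entries, and in 3 every one lay below, as in 6.98%. Against F1-25C, 11 ttr genes were called and all 11 were lower in F1-back, against 8.23% of all entries, 6.05% lower. The 9 genes called higher in F1-25C were among them, but both comparisons rest on the same 4 F1-25C libraries and the overlap is no independent support. Without the fold threshold 23 ttr genes passed, against 18.7% of all entries. In F1-back ttr-23 stood at 0.888, 0.473, 0.708 and 0.725 CPM and ttr-50 at 1.24, 1.34, 1.2 and 0.997 CPM, within or near the range of F1-1DOA. Compared with F1-25C, they fell by 2.97 and 1.89 on the log2 scale (SEs 0.51 and 0.40, edgeR adjusted p = 0.000155 and 0.00117). In F1-back ttr-21 was uneven, with 2.13 and 1.81 CPM in replicates 1 and 2 and 0.0708 and 0.0907 CPM in replicates 3 and 4. It fell by 3.42 on the log2 scale against F1-25C (SE 0.84, edgeR adjusted p = 0.00511). The other genes that fell were ttr-22, ttr-42, ttr-26, ttr-8, ttr-29, ttr-7, ttr-3 and ttr-27, with log2 fold changes of −4.10, −2.78, −2.04, −1.68, −1.67, −1.49, −1.42 and −1.12 (SEs 0.85, 0.84, 0.42, 0.56, 0.46, 0.35, 0.47 and 0.33, edgeR adjusted p = 0.00102, 0.0211, 0.00103, 0.036, 0.0107, 0.00338, 0.0306 and 0.0166). In 26 of the 48 members every F1-back library lay below every F1-25C library, as in 15.8% of all entries, and in 1 above, as in 15.7%. Positive changes numbered 12 of 48, against 47.7% of all entries.

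Among the marker lists, 8 of 14 oocyte and yolk genes were also lower in F1-back than in F1-25C, with sums of 2190 to 9300 CPM against 6100 to 15300 CPM. Of 17 moulting genes tested, 15 had a positive change, with a median of 0.55, and mlt-8, mlt-10 and ptr-4 were called higher. Their part in the fall of the ttr genes was not tested. The calls of ttr-21, ttr-22, ttr-23, ttr-26, ttr-50 and ttr-7 held whichever library was left out. Without F1-back replicate 3 or 4, 7 ttr genes were called. The call of ttr-29 was lost without F1-back replicate 4, and those of ttr-27 and ttr-42 without F1-back replicate 3 or 4 or F1-25C replicate 2. The calls of ttr-3 and ttr-8 were each lost in 6 of the 8 cases, and held only without F1-25C replicate 2 or F1-back replicate 1 for ttr-3, and without F1-25C replicate 3 or F1-back replicate 1 for ttr-8.

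**Figure D2:**
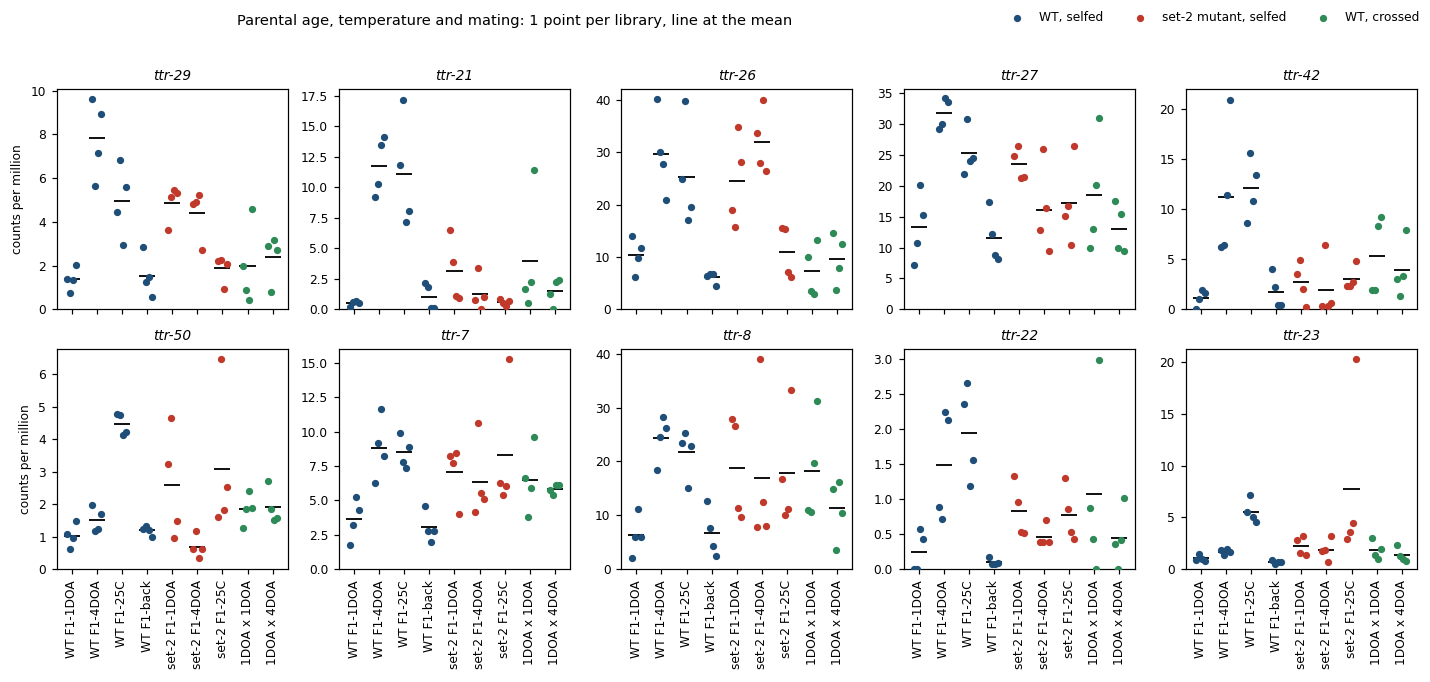
Level in CPM of the 10 ttr genes called in 2 or more comparisons, with 1 point per library and a line at the group mean, in the 4 WT groups (blue), the 3 set-2 groups (red) and the 2 crossed groups (green). The WT F1-4DOA and F1-25C libraries of ttr-21 sit at 7.17 CPM and above, and those of WT F1-1DOA at 0.661 CPM and below.

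The set-2 mutant was compared with WT in the progeny of young mothers at 20°C. In set-2 F1-1DOA, 3 ttr genes were called and all 3 were higher than in WT F1-1DOA, against 2.72% of all entries, 1.71% higher. The level of ttr-29 was 3.60, 5.15, 5.44 and 5.32 CPM in the mutant, above all 4 WT libraries, with a log2 fold change of 1.76 (SE 0.46, edgeR adjusted p = 0.0161). The level of ttr-26 was 14.1, 6.13, 9.82 and 11.7 CPM in WT and 19, 15.7, 34.9 and 28.2 CPM in the mutant. All 4 mutant libraries were again higher, with a log2 fold change of 1.22 (SE 0.40, edgeR adjusted p = 0.0458). For ttr-50 the groups overlapped, since mutant replicate 3 stood at 0.96 CPM and the others at 3.24, 4.64 and 1.47 CPM, and the log2 fold change was 1.26 (SE 0.41, edgeR adjusted p = 0.0402). The family as a whole lay higher in the mutant: 45 of the 48 log2 fold changes were positive, against 50.8% of all entries, with a median of 0.55 against 0.01 over all entries. In 11 of 48 every mutant library lay above every WT library, as in 7.57% of all entries, and in 0 every one lay below, as in 7.78%. Without the fold threshold 10 ttr genes passed, all 10 higher, against 11.9% of all entries. No oocyte and yolk gene of 14 was called here, with 0 under an unadjusted p of 0.05, and of 17 moulting genes 0 were called, with 2 under it (edgeR). All 4 muscle genes tested were lower, with an unadjusted p under 0.05 and 0 called. The muscle list summed to 3920 to 6480 CPM in the mutant and 6940 to 8010 CPM in WT, without overlap, with 2 of its 6 genes at 0. Of 11 lipid carrier genes 7 had an unadjusted p under 0.05, with 0 called and 9 positive. The sperm gene fer-1 was called lower, with a log2 fold change of −1.02 (SE 0.19, edgeR adjusted p = 0.00166). It was the only called gene of 21 sperm genes tested, and most others went the other way. Of the 21, 15 had a positive change, with a median of 0.21, and 6 had an unadjusted p under 0.05. The part of these genes in the change of the ttr genes was not tested. The calls depended on single libraries. Without WT replicate 1 or 2 edgeR called 0 ttr genes, and it called 6 without WT replicate 3 and 8 without mutant replicate 4. The call of ttr-26 was lost without any WT library or without mutant replicate 3 or 4, and that of ttr-50 without WT replicate 3 or mutant replicate 1 or 2. The call of ttr-29 was lost only without WT replicate 1 or 2.

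Maternal age was then tested within the mutant. In set-2 F1-4DOA against set-2 F1-1DOA, 5 ttr genes were called and all 5 fell, against 5.98% of all entries, 4.37% lower. They were ttr-50, ttr-58, ttr-56, ttr-13 and ttr-57, with log2 fold changes of −1.73, −1.49, −1.23, −1.07 and −1.02 (SEs 0.41, 0.42, 0.30, 0.31 and 0.33, edgeR adjusted p = 0.00402, 0.0119, 0.00502, 0.0153 and 0.0242). In F1-1DOA ttr-56 stood at 5.96, 6.77, 6.08 and 5.54 CPM and in F1-4DOA at 2.62, 4.02, 1.74 and 1.52 CPM, without overlap. The gene ttr-55 overlaps ttr-56 on the same strand and could share its reads. For ttr-50 the groups overlapped, with 0.614, 1.17, 0.347 and 0.634 CPM in F1-4DOA. None of the 6 genes that rose with maternal age in WT was called in the mutant, where ttr-21 stood at 6.47, 3.90, 1.07 and 0.952 CPM in F1-1DOA and at 0.726, 3.40, 0 and 1.01 CPM in F1-4DOA. Of the 48 members 7 had a positive change, against 53.4% of all entries, with a median of −0.25 against 0.05. In the same comparison 14 of 21 sperm genes and 6 of 14 oocyte and yolk genes fell, while fer-1 of the sperm list rose. All 17 moulting genes tested had a positive change, with a median of 0.96, and fbn-1 was called. All 4 muscle genes tested also had a positive change and an unadjusted p under 0.05, with 0 called, and that list summed to 3920 to 6480 CPM in F1-1DOA and 6310 to 9500 CPM in F1-4DOA. The sperm list summed to 1960 to 4080 CPM in F1-1DOA and 781 to 1560 CPM in F1-4DOA, with 4 of its 25 genes at 0. The part of these genes in the change of the ttr genes was not tested. The calls of ttr-50 and ttr-56 held whichever library was left out, also without F1-4DOA replicate 3, the shallowest library of the group with 2819460 counts. Without F1-1DOA replicate 3 or F1-4DOA replicate 1 only these 2 were called, 3 were without F1-4DOA replicate 4, and ttr-57 was lost without F1-1DOA replicate 2 as well.

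The difference between the genotypes was tested by an interaction term, that is the log2 fold change with maternal age in set-2 minus that in WT. It was called for 3 ttr genes, all 3 negative, against 1.22% of all entries, 1.13% negative. They were ttr-21, ttr-29 and ttr-27, at −5.58, −2.62 and −1.79 (SEs 1.22, 0.62 and 0.46, edgeR adjusted p = 0.0212, 0.03 and 0.0464). For ttr-29, the 4 set-2 F1-4DOA libraries stood at 4.80, 4.92, 5.21 and 2.7 CPM, near the 3.60 to 5.44 CPM of set-2 F1-1DOA. Thus ttr-29 was at a middle level in both mutant groups, between WT F1-1DOA and WT F1-4DOA. Of the 48 members, 46 had a lower change in set-2 than in WT and 2 a higher one, against 49.5% of all entries higher, with a median difference of −0.55 against −0.01. All 14 oocyte and yolk genes tested also had a negative term, 8 of them called, with a median of −2.12. Of 21 sperm genes 3 had a positive term, with a median of −1.2. There msp-38, msp-19 and msp-3 were called negative and fer-1 positive. The part of these genes was not tested. Without WT F1-1DOA replicate 1, WT F1-4DOA replicate 4, set-2 F1-1DOA replicate 2 or set-2 F1-4DOA replicate 1 or 4, edgeR called 0 ttr genes. It called 1 without WT F1-1DOA replicate 2 or 4. Without set-2 F1-4DOA replicate 2, which was high in several members, 12 were called, and 9 were without set-2 F1-1DOA replicate 4. The call of ttr-27 was also lost without WT F1-4DOA replicate 2 or 3, set-2 F1-1DOA replicate 1 or set-2 F1-4DOA replicate 3.

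At 25°C the mutant showed 2 called ttr genes, against 2.97% of all entries, 1.99% higher and 0.98% lower. The level of ttr-29 fell to 2.22, 2.27, 0.936 and 2.08 CPM, below all 4 set-2 F1-1DOA libraries, with a log2 fold change of −1.38 (SE 0.44, edgeR adjusted p = 0.0485). The level of ttr-23 was 2.79, 1.55, 3.20 and 1.34 CPM in set-2 F1-1DOA and 2.90, 3.55, 4.42 and 20.3 CPM in set-2 F1-25C, a log2 fold change of 1.83 (SE 0.44, edgeR adjusted p = 0.0106). That value rested on F1-25C replicate 4, without which it was 0.73 and not called, and the call was lost without F1-1DOA replicate 4 as well. The call of ttr-29 held only when F1-1DOA replicate 2 was left out, and edgeR called 3 ttr genes in that case. Of 14 oocyte and yolk genes tested, 0 had a positive change, with a median of −0.43 and 6 under an unadjusted p of 0.05 (edgeR). Called lower were vit-5 and vit-4, the latter with a log2 fold change of −3.02 (SE 0.62, edgeR adjusted p = 0.00309). Their part in the change of the ttr genes was not tested. The interaction of temperature with set-2 was called for 4 ttr genes, all 4 negative, against 2.68% of all entries, 1.95% negative. They were ttr-21, ttr-29, ttr-26 and ttr-30, at −6.88, −3.14, −2.40 and −1.12 (SEs 1.29, 0.64, 0.57 and 0.32, edgeR adjusted p = 0.00441, 0.0066, 0.0158 and 0.045). In set-2 F1-25C, ttr-21 stood at 0.863, 0.497, 0.268 and 0.693 CPM, below the 7.17 to 17.2 CPM of WT F1-25C in each library. The calls of ttr-21 and ttr-29 held whichever of the 16 libraries was left out. That of ttr-26 was lost without WT F1-1DOA replicate 2, that of ttr-30 without 12 of the 16 libraries, and 6 ttr genes were called without set-2 F1-25C replicate 4. All 14 oocyte and yolk genes tested had a negative term here too, 10 of them called, with a median of −1.82. Positive terms were called for dpy-13 of the moulting list and cpr-6 of a list of intestine genes. The part of these genes was not tested.

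The crosses tested maternal age in the presence of young sperm. Between 1DOA x 4DOA and 1DOA x 1DOA, edgeR and DESeq2 called 0 ttr genes, where edgeR called 0.0653% of all entries. An unadjusted p under 0.05 was seen for 1 ttr gene and for 7% of all entries. In 1DOA x 1DOA ttr-21 stood at 1.66, 0.490, 2.26 and 11.4 CPM and in 1DOA x 4DOA at 1.26, 0, 2.20 and 2.41 CPM. The groups overlapped, and replicate 4 of 1DOA x 1DOA was far above the others. The change with maternal age in crosses minus that in selfed WT was called for 1 ttr gene, ttr-21, at −5.92 (SE 1.23, edgeR adjusted p = 0.0254), against 0.581% of all entries, 0.536% negative, and DESeq2 called 5. This call was lost without WT F1-1DOA replicate 1 or 4, WT F1-4DOA replicate 3, 1DOA x 1DOA replicate 4 or 1DOA x 4DOA replicate 1, 2 or 3. For 2 ttr genes it was called without WT F1-1DOA replicate 3 or 1DOA x 1DOA replicate 1 or 2. All 14 oocyte and yolk genes tested had a negative term as well, with a median of −1.26. Each of the 14 had an unadjusted p under 0.05 (edgeR), against 12.3% of all entries. Of them vit-1 was called, at −2.77 (SE 0.63, edgeR adjusted p = 0.0341). Between cross-progeny and self-progeny of young mothers, edgeR called 0 of the 48 ttr genes, against 2.33% of all entries, where DESeq2 called 2. The transcript-named entry of ttr-44, outside the 48, was called higher in cross-progeny, by 3.73 on the log2 scale (SE 0.43, edgeR adjusted p = 8.44e-07). An unadjusted p under 0.05 was seen for 14 ttr genes and for 22.9% of all entries, and without the fold threshold 1 ttr gene passed, against 4.59%. Without WT F1-1DOA replicate 3 edgeR called ttr-32 and ttr-33 in that comparison, and without 1DOA x 1DOA replicate 2 it called ttr-21. All 14 oocyte and yolk genes had a positive change there, with a median of 0.45. Of these 4 had an unadjusted p under 0.05 (edgeR) and 0 were called. Of 17 moulting genes 3 had a positive change, with a median of −0.63, 9 under it and 0 called. The part of these genes in the changes of the ttr genes was not tested. Cross-progeny can include males. Of 11 genes listed for males, 4 passed the filter and the sex-determining gene her-1 was at 0 in every library. The list summed to 3.46 to 4.65 CPM in 1DOA x 1DOA and 4.61 to 5.41 CPM in 1DOA x 4DOA, against 3.78 to 4.59 CPM in WT F1-1DOA.

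**Figure D3:**
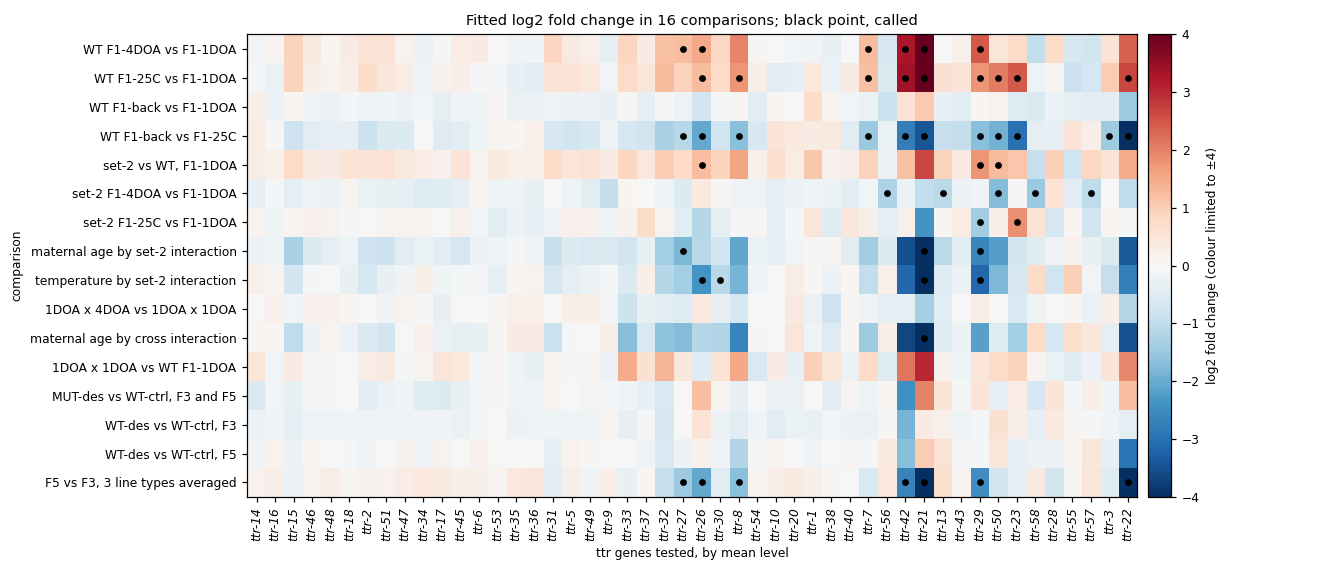
Fitted log2 fold change (colour, limited to 4 in either direction) of the 48 tested ttr genes, ordered by mean level, in 16 comparisons, with a black point where a gene was called. Called genes lie in the right part of the map, among weakly expressed members, and ttr-21 and ttr-29 carry 7 and 8 of the points.

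Of the members with a known role, ttr-52 could not be read. TTR-33, which protects dopamine neurons, comes from a gene at a moderate level, and ttr-33 was called in none of the 16 comparisons. It stood at 7.04, 12, 23.4 and 13.8 CPM in WT F1-1DOA, at 21.3, 21.1, 37 and 22.1 CPM in F1-4DOA and at 22.6, 24.7, 24.0 and 24.0 CPM in F1-25C. The log2 fold changes were 0.85 and 0.76 (SE 0.45 each, edgeR adjusted p = 0.429 and 0.377), and F1-1DOA overlapped both groups through its replicate 3. In 1DOA x 1DOA it reached 51.0, 25.2, 34.3 and 47.8 CPM, above all WT F1-1DOA libraries, but the log2 fold change of 1.49 did not pass the test (SE 0.46, edgeR adjusted p = 0.0569). In set-2 against WT F1-1DOA its log2 fold change was 0.85 (SE 0.45, edgeR adjusted p = 0.2), and within the mutant it was 0.09 in F1-4DOA and 0.17 in F1-25C (SE 0.44 each, edgeR adjusted p = 0.905 and 0.847), where leaving out single libraries turned the sign. Of 5 dopamine neuron genes tested, 0 were called in the age, temperature or cross comparisons in WT, with 1 under an unadjusted p of 0.05 in F1-back against either reference and in 1DOA x 1DOA against WT F1-1DOA. Of 6 tested genes of the oxidative stress response, sod-3, a superoxide dismutase gene, rose at 25°C in WT with a log2 fold change of 1.01 (SE 0.27, edgeR adjusted p = 0.0151) and was lower in F1-back than in F1-25C, by −1.29 (SE 0.27, edgeR adjusted p = 0.00116). In the same list skn-1, the transcription factor of that response, rose in set-2 F1-4DOA with 1.16 (SE 0.43, edgeR adjusted p = 0.049).

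The partners of TTR-52 were read from a list of 22 genes for the recognition and engulfment of dying cells, such as ced-1, the receptor, and ced-6, its adaptor. Of these 14 were tested in the parental libraries and 15 in the outcross. In the 16 comparisons edgeR called 0 of them, with 0 to 8 under an unadjusted p of 0.05, where 1.46% to 38.1% of all entries were. Their median log2 fold change was 0.06 in WT F1-4DOA and 0.11 in WT F1-25C, against 0.31 and 0.38 for the ttr genes. In set-2 against WT F1-1DOA it was −0.24, against 0.55, with 4 of 14 positive and 5 under an unadjusted p of 0.05. In set-2 F1-4DOA against set-2 F1-1DOA it was 0.35, against −0.25, with 11 of 14 positive and 8 under it. Of 17 genes of other secreted or intracellular lipid carriers, 11 were tested. In these libraries far-3 was lower in 1DOA x 1DOA than in WT F1-1DOA and lbp-8 fell in set-2 F1-25C, by 1.2 on the log2 scale (SE 0.33, edgeR adjusted p = 0.0218), and no other of them was called in the 16 comparisons.

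In the outcross, descent from a set-2 mutant was tested. Between MUT-des and WT-ctrl over both generations, edgeR and DESeq2 called 0 ttr genes, where edgeR called 0.176% of all entries. An unadjusted p under 0.05 was seen for 9 of the 48 ttr genes and for 7.08% of all entries. Between WT-des and WT-ctrl both tools called 0 at F3 and 0 at F5, where edgeR called 0.0063% of all entries in each. An unadjusted p under 0.05 was seen for 1 ttr gene at F3, against 1.72% of all entries, and for 2 at F5, against 1.46%. The median log2 fold changes of the family were −0.08, −0.17 and −0.02, against 0.01, −0.01 and 0.01 over all entries. The log2 fold changes of ttr-33 were −0.16, −0.33 and −0.01 (SEs 0.24, 0.30 and 0.32, edgeR adjusted p = 1, 0.999 and 1). The abundant ttr-14 had −0.61 in MUT-des (SE 0.14, edgeR adjusted p = 0.0857).

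The generations were compared next. In F5 against F3, averaged over WT-ctrl, WT-des and MUT-des, 7 ttr genes were called and all 7 were lower in F5, against 2.11% of all entries, 1.95% lower. Without the fold threshold 13 passed, against 8.34% of all entries. Of these 8 were lower, against 4.59%, and 5 were higher, against 3.76%: ttr-13, ttr-34, ttr-35, ttr-36 and ttr-56, with log2 fold changes of 0.65, 0.42, 0.43, 0.46 and 0.42. Whether the F5 libraries come from the lines sequenced at F3 is not given, and the test treats them as independent. Over the 11 F3 libraries ttr-21 ranged from 0 to 19.5 CPM with a median of 4.27, and over the 10 F5 libraries from 0 to 0.393 CPM with a median of 0.0571. All F5 libraries were thus low, while F3 libraries were spread widely and overlapped them at 0, with a log2 fold change of −6.43 (SE 1.09, edgeR adjusted p = 0.00373). The level of ttr-29 ranged from 1.22 to 11.2 CPM at F3, with a median of 2.85, and from 0.285 to 1.53 CPM at F5, with a median of 0.657. Only the lowest F3 libraries reached the F5 range, and the log2 fold change was −2.50 (SE 0.44, edgeR adjusted p = 0.00373). For ttr-27 the range was 7.50 to 53.8 CPM at F3, with a median of 16.5, and 5.85 to 10.7 CPM at F5, with a median of 7.50, and the log2 fold change was −1.45 (SE 0.29, edgeR adjusted p = 0.00678).

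The other genes that were lower at F5 were ttr-22, ttr-42, ttr-26 and ttr-8, with log2 fold changes of −4.29, −2.66, −2.05 and −1.68 (SEs 0.90, 0.64, 0.48 and 0.33, edgeR adjusted p = 0.00983, 0.0173, 0.0163 and 0.00605). All 7 are genes that rose in WT F1-4DOA, in WT F1-25C or in both. The matching share over all entries lower at F5 was not counted, so this overlap cannot be read as a trait of the ttr genes. The highest F3 value was in MUT-des F3 replicate 3 for ttr-21, ttr-29, ttr-26, ttr-27, ttr-22 and ttr-8, at 19.5, 11.2, 40.7, 53.8, 2.33 and 28.1 CPM, while ttr-42 was highest in WT-ctrl F3 replicate 2, at 8.89 CPM. The calls of these 7 genes held whichever library was left out. Over the family, 29 of the 48 log2 fold changes were positive, against 50.9% of all entries, with a median of 0.11 against 0.01 over all entries. Of the oocyte and yolk list, vit-6 was called lower, 12 of 14 genes had an unadjusted p under 0.05, and all 14 were lower at F5, with a median of −0.67. Its sums were 3460 to 13100 CPM at F3 and 1500 to 7670 CPM at F5, and its part in the change of the ttr genes was not tested.

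**Figure D4:**
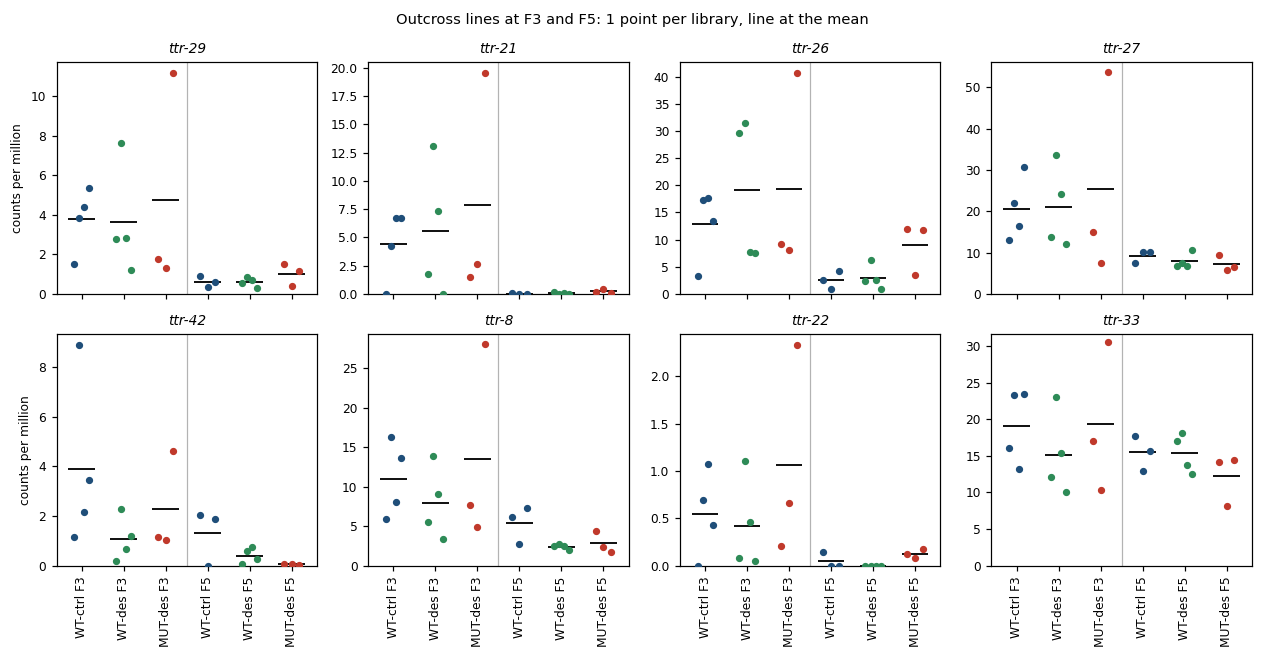
Level in CPM, with 1 point per library and a line at the group mean, of the 7 ttr genes called lower in F5 than in F3 and of ttr-33, in WT-ctrl (blue), WT-des (green) and MUT-des (red). For ttr-29, 10 F5 libraries sit at 1.53 CPM and below and F3 libraries reach 11.2 CPM.

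Some of the recurring genes varied with ttr-29 over the parental libraries, and others hardly did. Over the 36 libraries, Pearson's r of log2(CPM + 0.5) with ttr-29 was 0.87 for ttr-26, 0.71 for ttr-27, 0.70 for ttr-22, 0.68 for ttr-21, 0.62 for ttr-8, 0.56 for ttr-7 and 0.44 for ttr-42. It was 0.24 for ttr-23 and 0.16 for ttr-50. It was 0.20 for ttr-33, 0.29 for ttr-16 and −0.41 for ttr-14. For the yolk gene vit-2 it was 0.49, for rme-2 of the same oocyte and yolk list 0.17, and for mlt-10 −0.31. These values describe libraries of 9 groups that share their differences between groups, and carry no test.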

How the data were processed

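RNA-seq was done on pooled whole L4 animals, with fewer animals per sample in the outcross than in the parental experiments per the study's methods. The authors deposited 1 table of raw counts per library, with the counts made by HTSeq after alignment to ce10 (WS220) with RNA STAR, per the labels and the study's methods. The kit does not keep the strand, and how reads over overlapping genes were counted is not given in the sources used here. The labels give no batch or date. Every entry named a gene or transcript, so none was left out of the totals, which were 1271186 to 31543107 counts per library.

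Counts were tested in R 4.3.3 with edgeR 4.0.16 (filterByExpr, TMM factors, robust quasi-likelihood fit), in 1 fit of 36 parental libraries (15306 entries) and 1 of 21 outcross libraries (15872 entries), with no covariate. WT-ctrl F5 replicate 2 was left out of the second fit because of its depth and added back as an alternative. P-values were Benjamini-Hochberg adjusted over all entries tested, and the adjusted p and the fold threshold are given in the report. The scripts were tested on simulated counts. Replicates are taken as the labels number them. The p-values measure the spread between these samples, and lines of the outcross share a cross. CPM are TMM-scaled, on the scale of each fit. Library depth sets the counting error of low values: 1 CPM is about 3 counts in the parental library of 2819460 counts.

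Genes named were, in each comparison, up to 10 called ttr genes in each direction by adjusted p. Also named were ttr-33 and ttr-52, the 5 highest ttr genes, and up to 4 called genes of a list. Called list genes were not named in every comparison, and some are given only as a count or left out. Any other gene named was chosen after its values were seen. The members and lists were chosen with earlier results of these data known. Alternatives were DESeq2 1.42.0, other scaling, no filter, no fold threshold, only the groups compared, a replicate block, and each library left out. Gene positions are from WBcel235, which is not the build of the counts, so no coordinates or sequences are given.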

Additional observations from a re-analysis of the deposited data

Results flagged for a closer look

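Single libraries stood away from the others of their group in 14 of 131 groups of values tested over the 10 recurring genes and ttr-33, where chance gives about 1 in 20. In set-2 F1-4DOA replicate 2, ttr-8 was at 39 CPM and ttr-42 at 6.4 CPM, above the 7.82 to 12.5 and 0.279 to 0.603 CPM of the other 3 libraries. In set-2 F1-25C replicate 4, ttr-23 was at 20.3 CPM and ttr-7 at 15.3 CPM, above 2.9 to 4.42 and 5.39 to 6.29 CPM. The level of ttr-7 was low in set-2 F1-1DOA replicate 4, at 4.03 CPM against 7.73 to 8.43, and high in WT-des F5 replicate 2, at 6.88 CPM against 2.58 to 2.9. For ttr-29, set-2 F1-1DOA replicate 1 was low at 3.6 CPM against 5.15 to 5.44, set-2 F1-4DOA replicate 4 at 2.7 CPM against 4.8 to 5.21, and set-2 F1-25C replicate 3 at 0.936 CPM against 2.08 to 2.27. The level of ttr-21 was 11.4 CPM in 1DOA x 1DOA replicate 4 against 0.49 to 2.26. That of ttr-22 was 0.695 CPM in set-2 F1-4DOA replicate 3, a library of 2819460 counts, against 0.381 to 0.391. That of ttr-26 was 4.53 CPM in WT F1-back replicate 4 against 6.4 to 6.78. That of ttr-33 was 37 CPM in WT F1-4DOA replicate 3 against 21.1 to 22.1, and that of ttr-50 was 8.32 CPM in WT-des F5 replicate 3 against 1.87 to 2.25.

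The response to a treatment differed between groups, by an interaction term in edgeR at an adjusted p under 0.05, in these cases. The change with maternal age was lower in set-2 than in WT for ttr-21 by a log2 difference of −5.58, for ttr-29 by −2.62 and for ttr-27 by −1.79. The change at 25°C was lower in set-2 than in WT for ttr-21 by −6.88, for ttr-29 by −3.14, for ttr-26 by −2.4 and for ttr-30 by −1.12. The change with maternal age was lower in crosses than in selfed WT for ttr-21 by −5.92.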

How the results depend on the processing

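Of 926 alternative values for the ttr genes named as called, 758 kept their direction and call, 168 kept the direction and lost the call, and 0 changed direction. The 758 include the setting with no fold threshold, which reuses the main fit, so that a called gene could not lose its call there. The 7 calls of F5 against F3 held in each alternative run. The number of ttr genes called moved by over 1.5 times in these cases, for which the cause was not tested unless fewer samples or another threshold give it. With no filter it was 3 in WT F1-4DOA, 1 in set-2 against WT and 1 in set-2 F1-25C. With only the groups compared in the fit it was 1 in set-2 against WT, 2 in set-2 F1-4DOA, 0 in set-2 F1-25C and 1 in 1DOA x 1DOA against WT F1-1DOA. With DESeq2 it was 6 in set-2 against WT, 6 for maternal age by set-2, 5 for maternal age by cross and 2 in 1DOA x 1DOA against WT F1-1DOA. With library totals in place of TMM it was 1 in set-2 against WT. With no fold threshold it was 23 in F1-back against F1-25C, 10 in set-2 against WT, 1 in 1DOA x 1DOA against WT F1-1DOA and 13 in F5 against F3, where 18.7%, 11.9%, 4.59% and 8.34% of all entries passed.

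With each library left out in turn, the number called was 2 to 6 in WT F1-4DOA, 3 to 10 in WT F1-25C, 7 to 11 in F1-back against F1-25C, 0 to 8 in set-2 against WT, 2 to 6 in set-2 F1-4DOA, 0 to 3 in set-2 F1-25C, 0 to 12 for maternal age by set-2, 2 to 6 for temperature by set-2, 0 to 2 for maternal age by cross, 0 to 2 in 1DOA x 1DOA against WT F1-1DOA and 7 to 8 in F5 against F3. The sign of ttr-33, which was called nowhere, turned in 5 comparisons: F1-back against F1-1DOA (−0.16 to 0.43), set-2 F1-4DOA (−0.39 to 0.57), set-2 F1-25C (−0.10 to 0.71), temperature by set-2 (−0.86 to 0.01) and WT-des at F5 (−0.12 to 0.10, also 0.01 with no filter and 0.03 with all 22 libraries).

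Replicate numbers were not treated as pairs in the main fits. Among sets of 3 or more pairs none had each correlation of deviations over 0.1. The set of 2 pairs of MUT-des F5 with WT-ctrl F5 had 0.16 and 0.19. Such a cutoff cannot show that the samples were unpaired. With the replicate number as a block, edgeR called 6 ttr genes in WT F1-4DOA, 8 in WT F1-25C, 10 in F1-back against F1-25C, 4 in set-2 against WT, 5 in set-2 F1-4DOA, 2 in set-2 F1-25C, 3 for maternal age by set-2, 4 for temperature by set-2, 1 for maternal age by cross and 7 in F5 against F3. Depth limits the low members most, such as ttr-22, whose level of 0.695 CPM in set-2 F1-4DOA replicate 3 rests on few counts.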

Other observations

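The transcript-named entry of ttr-59, a gene next to ttr-30 on chromosome X whose own entry held 0 counts, was called in 4 of 16 comparisons, and that of ttr-44 in 5 of the 12 in which it was tested. Both were chosen after their values were seen, and the transcript-named entries of ttr-11, ttr-12, ttr-24, ttr-25 and ttr-39 were called in none. For ttr-59 the mean was 6.67 CPM in WT F1-1DOA, 33.7 in F1-4DOA, 24.8 in F1-25C and 6.67 in F1-back (n = 4 each). The log2 fold changes were 2.34 in F1-4DOA and 1.90 in F1-25C over F1-1DOA (standard errors 0.58 and 0.57, edgeR adjusted p = 0.0169 and 0.0348) and −1.89 in F1-back over F1-25C (standard error 0.57, edgeR adjusted p = 0.0197). In F5 against F3 its log2 fold change was −1.98 (standard error 0.36, edgeR adjusted p = 0.00465), with overlapping groups.

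The transcript-named entry of ttr-44 had another pattern. Its mean was 0.0984 CPM in WT F1-1DOA, 0.248 in F1-4DOA and 0.157 in F1-25C, but 2.53 in WT F1-back, 0.975 in set-2 F1-1DOA, 1.26 in set-2 F1-4DOA, 2.77 in set-2 F1-25C, 1.61 in 1DOA x 1DOA and 2.51 in 1DOA x 4DOA (n = 4 each). Its log2 fold change over WT F1-1DOA was 4.39 in F1-back, 3.02 in set-2 F1-1DOA and 3.73 in 1DOA x 1DOA (standard errors 0.42, 0.45 and 0.43, edgeR adjusted p = 8.68e-09, 7.81e-05 and 8.44e-07). These are low values from few reads per library, and the labels give no batch by which they could be compared. The groups with the low and the higher means are also the sides of several comparisons above. These are F1-back against F1-1DOA or F1-25C, set-2 against WT, and crossed against selfed progeny. Whether a difference in strain or batch enters these comparisons was not tested.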
